A study of Mus musculus with 60 samples.

Results

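Complement genes for C1q, properdin, late components and receptors were followed in preparations of mouse Kupffer cells, which are macrophages that reside in the liver. The 9 genes were chosen by name from the 24411 genes of the deposited count table: C1qa, C1qb, C1qc, Cfp, C3, C6, Vsig4, C3ar1 and C5ar1. They were chosen with earlier results of these data known, so counts among them set beside all tested genes describe them and test nothing. All 9 passed the filter on low counts and are among the 9001 genes tested. Complement is a cascade of plasma and tissue proteins that tags particles for uptake. Its classical arm starts when C1q, a molecule assembled from A, B and C chains, binds antibody, dead cells or pentraxins. The alternative arm is held together by properdin, which stabilises the enzyme that cleaves C3. Products of C3 coat the target and are taken up by receptors, while the small fragments C3a and C5a signal through receptors coupled to G proteins. The late component C6 joins the pore that inserts into membranes. Hepatocytes make most plasma complement, whereas C1q and properdin come mainly from myeloid cells. Kupffer cells carry VSIG4, a receptor for C3b and iC3b with which they clear particles from blood.

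The genes were read in Kupffer cell preparations of 15 mice in 3 groups of 5. The first group was Trem1-deficient and had been given carbon tetrachloride (CCl4), which injures hepatocytes, the second was wild type (WT) and had been given CCl4, and the third was WT and had been given corn oil. Trem1 encodes a receptor through which neutrophils, monocytes and macrophages are activated. The labels describe all mice as C57BL/6J, male and 8-week-old, give the CCl4 dose as 2 µl/g (1:4 in corn oil) and place the collection 12 h after it. The sources used here do not say which part of Trem1 is missing, and the 3 groups include no Trem1-deficient mice given oil. Cells bound by CD11b beads were discarded before F4/80-positive cells were collected, so the preparations could lose CD11b-bearing monocytes and neutrophils. The libraries hold tags from the 3′ ends of transcripts, so a level does not scale with transcript length.

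Gene counts per library came to 1250547 to 2593004 in Trem1-deficient CCl4 mice, 812320 to 1912946 in WT CCl4 mice and 892498 to 1922569 in oil mice. Trem1 had 1.17 to 10.9 CPM (TMM-scaled counts per 1000000) in Trem1-deficient CCl4 mice, 111.0 to 574.9 CPM in WT CCl4 mice and 32.9 to 108.9 CPM in oil mice. All 12 Kupffer cell markers, Clec4f and Timd4 among them, had counts in every group. Transcripts that depend on sex went against the male label in 7 libraries, those of the 5 oil mice and of Trem1-deficient CCl4 mice 1 and 2. Index numbers in the labels separate the same 7 libraries (series 1) from the other 8 (series 2). WT CCl4 against oil is therefore also series 2 against series 1, and the effects of CCl4, sex and series cannot be told apart in it. Values within a series, or from a fit with series as a term (which rests on the Trem1-deficient CCl4 mice), stand beside many edgeR results below. Levels relative to marker lists have no such value in WT CCl4 against oil. In such bulk preparations fewer cells of a type and less RNA per cell cannot be told apart.

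Transcripts of the C1q chains, properdin and Vsig4 stood at 0.146 to 0.239 of their oil level in WT CCl4 mice, and in Trem1-deficient CCl4 mice they stood at 3.32 to 5.01 times the WT CCl4 level. Of the 9 genes, 5 were lower and 0 higher in WT CCl4 than in oil mice by edgeR's quasi-likelihood test (adjusted p under 0.05 by the Benjamini-Hochberg method). Of all tested genes 5.13% changed in that comparison, 2.09% lower and 3.04% higher. The same test called 5 higher and 0 lower in Trem1-deficient CCl4 than in WT CCl4 mice, where 2.06% of all genes changed, 0.778% higher and 1.28% lower. Both comparisons name C1qa, C1qb, C1qc, Cfp and Vsig4, and both use the WT CCl4 mice. For each of these genes the 5 WT CCl4 mice lay below all mice of the other groups, whereas 3.44% of tested genes had WT CCl4 mice below all oil mice and 3.13% above them. Trem1-deficient CCl4 mice lay above all WT CCl4 mice in 3.42% of tested genes and below them in 2.12%. The median log2 fold change of the 9 genes was -2.11 for WT CCl4 against oil and 1.80 for Trem1-deficient against WT CCl4, beside 0.06 and -0.03 over all tested genes.

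**Figure D1:**
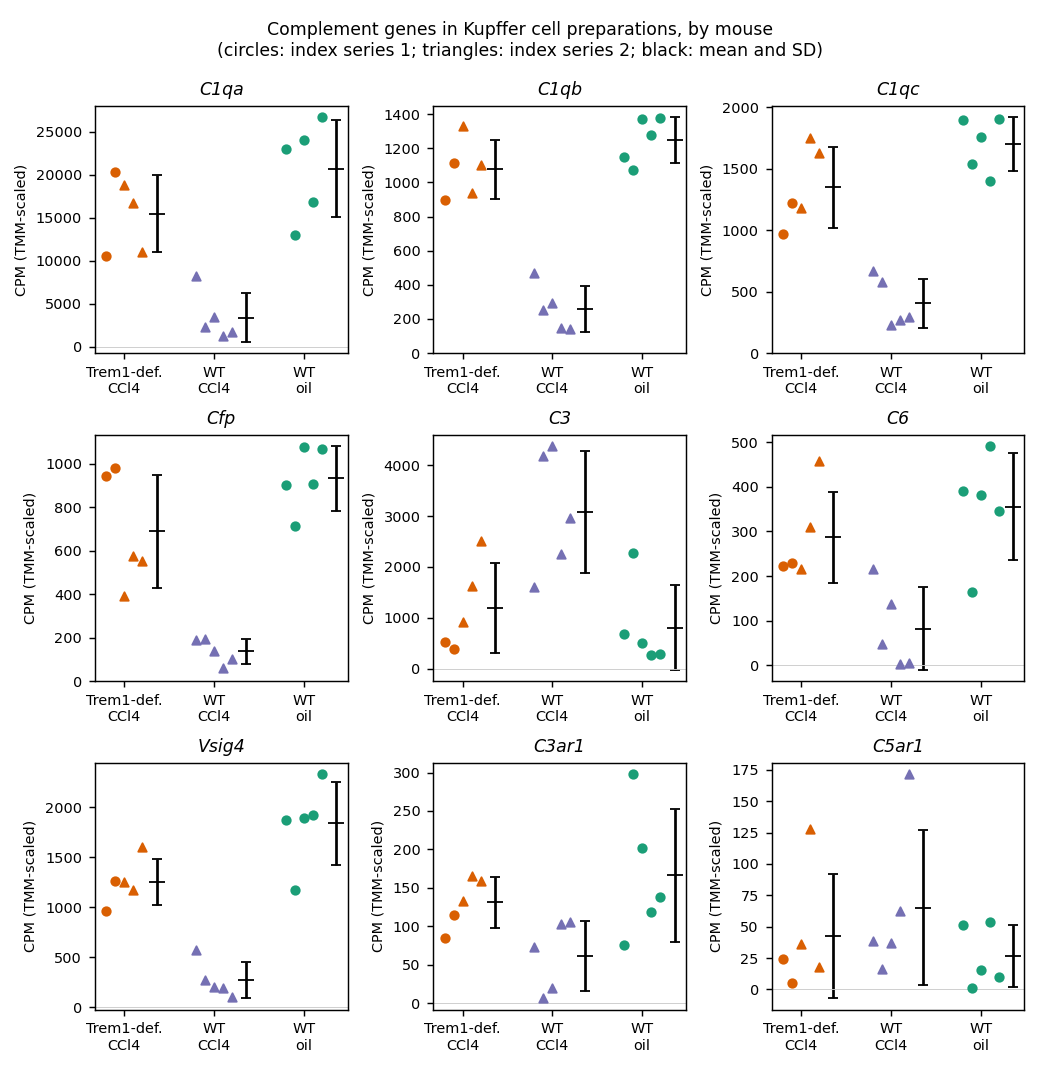
Level of each of the 9 complement genes in TMM-scaled CPM (vertical axes) by mouse, with Trem1-deficient CCl4, WT CCl4 and oil mice from left to right; points are mice, circles and triangles are index series 1 and 2, and black bars are the mean and SD (n = 5). The WT CCl4 mice lie below every other mouse for C1qa, C1qb, C1qc, Cfp and Vsig4, while the groups overlap for C3, C6, C3ar1 and C5ar1.

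The C1q chain genes lie side by side on chromosome 4, minus strand (GRCm38), at chr4:136895917-136898803 for C1qa, chr4:136880129-136886187 for C1qb and chr4:136889804-136893065 for C1qc, within 18.7 kb. C1qa, the A chain gene, had 10550, 20320, 18800, 16700 and 11020 CPM in Trem1-deficient CCl4 mice 1 to 5, 8201, 2253, 3421, 1277 and 1746 CPM in WT CCl4 mice and 23000, 12930, 24040, 16810 and 26640 CPM in oil mice. WT CCl4 mouse 1 stood highest in its group, and Trem1-deficient CCl4 and oil mice overlapped. The fitted log2 fold change was -2.61 ± 0.44 (SE) for WT CCl4 against oil (edgeR adjusted p = 0.00190). It was 2.20 ± 0.43 for Trem1-deficient against WT CCl4 (edgeR adjusted p = 0.0135). That call sat near its threshold, since the adjusted p was 0.0504 without Trem1-deficient CCl4 mouse 3, 0.0501 without Trem1-deficient CCl4 mouse 4 and 0.0568 without WT CCl4 mouse 3 (edgeR), with log2 fold changes of 2.12, 2.17 and 2.20.

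C1qb, the B chain gene, had 897, 1114, 1332, 938 and 1105 CPM in Trem1-deficient CCl4 mice, 471, 251, 295, 147 and 140 CPM in WT CCl4 mice and 1148, 1075, 1370, 1279 and 1376 CPM in oil mice. Outside the WT CCl4 group it varied the least of the 3 chains between mice, with a coefficient of variation of 16.0% in Trem1-deficient CCl4, 51.8% in WT CCl4 and 10.7% in oil mice. Its log2 fold change was -2.26 ± 0.30 for WT CCl4 against oil (edgeR adjusted p = 1.59e-05) and 2.05 ± 0.30 for Trem1-deficient against WT CCl4 (adjusted p = 0.000159). C1qc, the C chain gene, had 966, 1218, 1182, 1748 and 1630 CPM in Trem1-deficient CCl4 mice, 664, 576, 230.0, 267 and 291 CPM in WT CCl4 mice and 1895, 1541, 1757, 1402 and 1906 CPM in oil mice. Trem1-deficient CCl4 mice 4 and 5 reached the oil range for C1qc and mice 1 to 3 stayed below it. Its log2 fold change was -2.07 ± 0.29 for WT CCl4 against oil (edgeR adjusted p = 3.43e-05) and 1.73 ± 0.29 for Trem1-deficient against WT CCl4 (adjusted p = 0.000833).

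The 3 chains are joined in equal numbers in C1q, but their tags were far from equal. C1qa gave 9.98 to 18.2 counts per C1qb count in Trem1-deficient CCl4 mice, 8.68 to 17.4 in WT CCl4 mice and 12.0 to 20.04 in oil mice. C1qc gave 0.887 to 1.86 counts per C1qb count in Trem1-deficient CCl4 mice, 0.780 to 2.30 in WT CCl4 mice and 1.10 to 1.65 in oil mice. The ranges of both ratios overlapped between all groups, and C1qa kept an excess of tags in each. The median of C1qa per C1qb was 14.1 in Trem1-deficient CCl4, 11.6 in WT CCl4 and 17.5 in oil mice. The median of C1qc per C1qb was 1.09, 1.82 and 1.39 in the same order. Whether the chain genes moved by equal factors was not tested. C1qa alone took a median of 1.64% of all gene counts in Trem1-deficient CCl4 mice (range 1.16 to 2.31%), 0.212% in WT CCl4 mice (0.122 to 0.645%) and 2.38% in oil mice (1.16 to 2.90%). How well each 3′ end is captured was not measured, so the excess of C1qa is one of tags.

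Cfp encodes properdin and lies on the X chromosome (chrX:20925454-20931555, minus strand). It had 944, 980, 393, 575 and 552 CPM in Trem1-deficient CCl4 mice, 190, 195, 137, 62.96 and 102 CPM in WT CCl4 mice and 903, 712, 1075, 907 and 1068 CPM in oil mice. The Trem1-deficient CCl4 mice divided along the index series: mice 1 and 2 lay within the oil range and mice 3 to 5 below it, though above every WT CCl4 mouse. The log2 fold change was -2.76 ± 0.33 for WT CCl4 against oil (edgeR adjusted p = 3.30e-06) and 2.32 ± 0.33 for Trem1-deficient against WT CCl4 (adjusted p = 0.000108). Within index series 2, against Trem1-deficient CCl4 mice 3 to 5 alone, the difference between the genotypes was 1.89 ± 0.45 (edgeR adjusted p = 0.0453).

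Vsig4, the macrophage receptor gene for C3b and iC3b, also lies on the X chromosome (chrX:96247203-96293438, minus strand). It had 968, 1263, 1255, 1175 and 1602 CPM in Trem1-deficient CCl4 mice, 572, 268, 203, 191 and 102 CPM in WT CCl4 mice and 1873, 1174, 1895, 1920 and 2334 CPM in oil mice. Oil mouse 2 lay among the Trem1-deficient CCl4 mice, and the other oil mice lay above all of them. The log2 fold change was -2.78 ± 0.34 for WT CCl4 against oil (edgeR adjusted p = 3.55e-06) and 2.23 ± 0.33 for Trem1-deficient against WT CCl4 (adjusted p = 0.000193). Unlike Cfp, Vsig4 showed no division by index series among Trem1-deficient CCl4 mice, where mouse 1 was the lowest and mouse 5 the highest.

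Within index series 2, where Trem1-deficient CCl4 mice 3 to 5 face the 5 WT CCl4 mice, all 5 genes were still called higher in the Trem1-deficient mice by edgeR. The log2 fold changes there were 2.21 ± 0.46 for C1qa, 2.12 ± 0.42 for C1qb, 1.92 ± 0.40 for C1qc and 2.34 ± 0.44 for Vsig4, beside the value of Cfp above. WT CCl4 against oil has no within-series value. With series as a term it kept its call for C1qb (-2.42 ± 0.53, edgeR adjusted p = 0.0231), C1qc (-2.54 ± 0.52, adjusted p = 0.0115) and Vsig4 (-3.05 ± 0.59, adjusted p = 0.00844). It lost the call for C1qa (-2.62 ± 0.76, edgeR adjusted p = 0.273) and Cfp (-1.84 ± 0.53, adjusted p = 0.170), while both stayed negative.

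The promoters of the genes that moved together are shown for C1qb and Vsig4, with that of C3, which did not move with them, for contrast. Each run gives the 250 bases before the RefSeq start (GRCm38.p6), 5′ to 3′ on the minus strand, at chr4:136886201-136886450, chrX:96293439-96293688 and chr17:57228137-57228386. Capitals mark GAGGAA, the core bound by the macrophage factor PU.1, in C1qb and Vsig4, and TTGCNNAA, a C/EBP pattern, in C3.
C1qb: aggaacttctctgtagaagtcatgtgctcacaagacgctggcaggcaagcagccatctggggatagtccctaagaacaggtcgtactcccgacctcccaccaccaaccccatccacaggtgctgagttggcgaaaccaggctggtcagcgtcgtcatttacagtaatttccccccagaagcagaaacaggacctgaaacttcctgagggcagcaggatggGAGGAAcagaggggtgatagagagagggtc
Vsig4: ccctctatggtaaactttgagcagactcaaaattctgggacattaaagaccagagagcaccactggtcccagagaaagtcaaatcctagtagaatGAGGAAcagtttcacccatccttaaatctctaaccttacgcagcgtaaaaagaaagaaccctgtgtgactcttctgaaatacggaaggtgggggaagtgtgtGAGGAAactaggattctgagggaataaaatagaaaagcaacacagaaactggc
C3: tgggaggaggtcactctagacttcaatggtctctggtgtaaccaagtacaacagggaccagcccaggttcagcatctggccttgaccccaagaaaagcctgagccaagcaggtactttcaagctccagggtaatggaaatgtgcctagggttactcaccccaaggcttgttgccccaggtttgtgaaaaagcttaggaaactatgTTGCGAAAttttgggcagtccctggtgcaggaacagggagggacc

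GAGGAA on either strand lies in 28.3% of the 32851 RefSeq promoters of 300 bases (250 before the start and 50 after it). Entries exist for 8 of the 9 genes. C1qb holds 1 copy beginning 30 bases before the start, and Vsig4 holds copies 155 and 53 bases before it. C1qc holds 1 copy on the other strand 193 bases before its start, Cfp holds copies on the other strand 7 and 23 bases after its start, and C6, C3, C3ar1 and C5ar1 hold 0. TTGCNNAA, in 10.8% of promoters, begins 45 bases before the start of C3 and was not found in the other 7. TGCTGA, part of the site of MAF factors and present in 19.5% of promoters, lies in C1qb, C3, Vsig4, C3ar1 and C5ar1. TATAAA, in 13.6% of promoters, lies in C3 and C3ar1, and an NF-kB pattern, in 8.46%, lies in C1qc. The motifs were picked after the levels were known, and a match describes letters only, not binding.

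**Figure D2:**
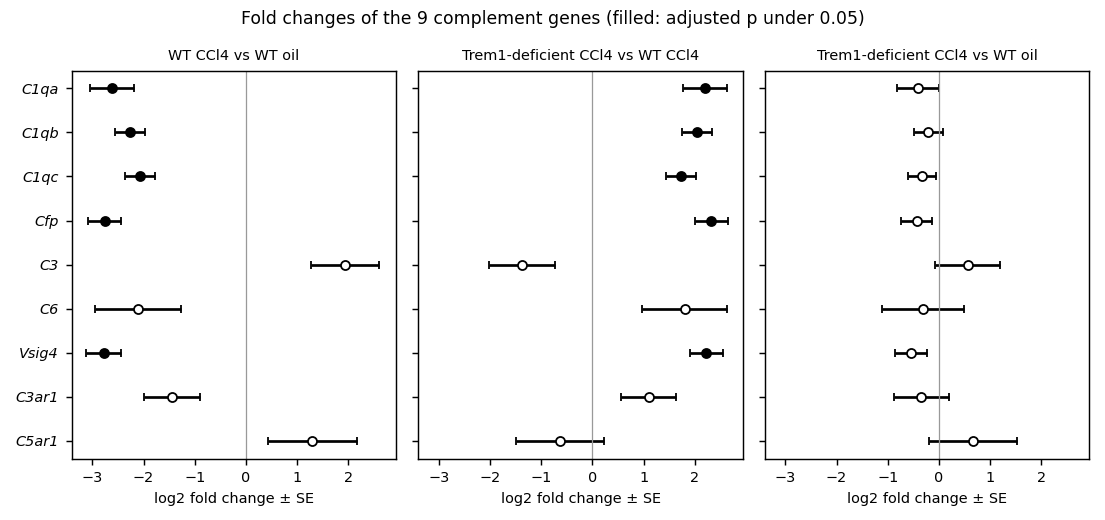
Fitted log2 fold changes (horizontal axes) of the 9 complement genes in WT CCl4 against oil, Trem1-deficient against WT CCl4 and Trem1-deficient CCl4 against oil; bars are the SE and filled points have an edgeR adjusted p under 0.05. C1qa, C1qb, C1qc, Cfp and Vsig4 lie between -2.78 and -2.07 on the left and between 1.73 and 2.32 in the middle, and no point is filled on the right.

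C3, the central component (chr17:57203970-57228136, minus strand), ran the other way without passing the test. It had 519, 377, 907, 1623 and 2512 CPM in Trem1-deficient CCl4 mice, 1602, 4182, 4383, 2246 and 2966 CPM in WT CCl4 mice and 684, 2269, 511, 273 and 287 CPM in oil mice. Oil mouse 2 stood among the WT CCl4 mice, and Trem1-deficient CCl4 mice 4 and 5 also reached that group. The log2 fold change was 1.94 ± 0.66 for WT CCl4 against oil (edgeR adjusted p = 0.116), and it was called without oil mouse 2 (2.81, edgeR adjusted p = 0.00307). It was -1.37 ± 0.64 for Trem1-deficient against WT CCl4 (edgeR adjusted p = 0.334) and -0.85 ± 0.41 within index series 2 (adjusted p = 0.581). With series as a term WT CCl4 against oil was 0.03 ± 0.91.

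Hepatocyte transcripts moved with C3 from mouse to mouse. The 20 hepatocyte markers summed to 3671, 2350, 9776, 16760 and 24210 CPM in Trem1-deficient CCl4 mice, 21230, 57840, 62560, 31390 and 43770 CPM in WT CCl4 mice and 8971, 19710, 6862, 3820 and 4997 CPM in oil mice. Within each group C3 ranked the 5 mice in the same order as these sums, and oil mouse 2 and Trem1-deficient CCl4 mouse 5 were the highest of their groups in both. Relative to the mean log2(CPM + 1) of these markers, C3 averaged 2.96 ± 0.37 (SD) in Trem1-deficient CCl4, 2.23 ± 0.38 in WT CCl4 and 1.93 ± 0.32 in oil mice. On that scale WT CCl4 and oil mice differed by 0.30 (exact permutation p = 0.238, adjusted p = 0.541 over 33 such tests). Trem1-deficient CCl4 mice lay above oil mice by 1.03, every mouse above every oil mouse, with an exact permutation p of 0.00794, the smallest that splits of 5 against 5 mice allow, and an adjusted p of 0.0524. They lay above WT CCl4 mice by 0.73 (exact permutation p = 0.0159, adjusted p = 0.0748). The Trem1-deficient CCl4 mice divided along the index series here, with mice 1 and 2 at 3.238 and 3.393 and mice 3 to 5 at 2.487 to 2.975. The WT CCl4 mice, all of series 2, had 1.731 to 2.584. C3 itself and the hepatocyte sums were also lower in Trem1-deficient CCl4 mice 1 and 2 than in mice 3 to 5. The share of C3 tags that came from hepatocytes was not tested.

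C6, a component of the membrane pore (chr15:4727175-4814967, plus strand), had 222, 230.0, 216, 309 and 458 CPM in Trem1-deficient CCl4 mice, 217, 48.3, 137, 2.29 and 4.15 CPM in WT CCl4 mice and 391, 164, 383, 493 and 346 CPM in oil mice. WT CCl4 mice 4 and 5 held 4 and 3 counts, and WT CCl4 mouse 1 lay within the Trem1-deficient CCl4 range. C6 did not pass the test, at -2.11 ± 0.84 for WT CCl4 against oil (edgeR adjusted p = 0.183) and 1.80 ± 0.83 for Trem1-deficient against WT CCl4 (adjusted p = 0.323). C6 was called lower in WT CCl4 than in oil mice without WT CCl4 mouse 1 (-2.89, edgeR adjusted p = 0.0489), by DESeq2 (-2.10, adjusted p = 0.0240) and by limma voom (-3.66, adjusted p = 0.00432). With series as a term C6 was not called in that comparison (-2.65 ± 1.46, edgeR adjusted p = 0.842). Limma voom also called it higher in Trem1-deficient than in WT CCl4 mice (3.27, adjusted p = 0.0117). Unlike C3, C6 was low in the group with the highest hepatocyte sums, and relative to those markers it averaged 1.20 ± 1.12 in Trem1-deficient CCl4, -4.34 ± 3.10 in WT CCl4 and 1.16 ± 1.56 in oil mice. The difference of Trem1-deficient from WT CCl4 mice was 5.54 (exact permutation p = 0.00794, adjusted p = 0.0524).

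The receptors for the small fragments were low and uneven. C3ar1, the C3a receptor gene (chr6:122847138-122856161, minus strand), had 84.2, 115, 132, 165 and 159 CPM in Trem1-deficient CCl4 mice, 72.5, 6.04, 20.04, 103 and 105 CPM in WT CCl4 mice and 76.1, 298, 202, 118 and 138 CPM in oil mice. WT CCl4 mice 2 and 3 stood far below the rest, mouse 1 lay just below the lowest mouse of either other group, and mice 4 and 5 lay within the range of both. Its log2 fold change was -1.44 ± 0.55 for WT CCl4 against oil (edgeR adjusted p = 0.129) and 1.09 ± 0.54 for Trem1-deficient against WT CCl4 (adjusted p = 0.334). With series as a term C3ar1 was -2.05 ± 0.98 in WT CCl4 against oil (edgeR adjusted p = 0.719). C5ar1, the C5a receptor gene (chr7:16246743-16259540, minus strand), had 24.1, 4.74, 36.5, 128 and 17.6 CPM in Trem1-deficient CCl4 mice, 38.6, 16.1, 37.2, 62.4 and 172 CPM in WT CCl4 mice and 51.7, 1.25, 15.7, 53.8 and 9.56 CPM in oil mice. All 3 groups overlapped, and oil mouse 2 held 1 count. Its log2 fold change was 1.30 ± 0.87 for WT CCl4 against oil (edgeR adjusted p = 0.462) and -0.63 ± 0.86 for Trem1-deficient against WT CCl4 (adjusted p = 0.801). For Trem1-deficient against WT CCl4 the direction hung on WT CCl4 mouse 5, with 0.14 without it. For WT CCl4 against oil the log2 fold change stayed positive without any single mouse (0.53 to 1.72), but was -0.77 with series as a term. C5ar1 is also a neutrophil gene, and 12 neutrophil markers summed to 398 to 3309 CPM in Trem1-deficient CCl4 mice, 1341 to 12430 CPM in WT CCl4 mice and 229 to 1779 CPM in oil mice. Within groups C5ar1 did not rank the mice as these sums did. WT CCl4 mouse 5 was the highest of its group in C5ar1 and the lowest in the sum (1341 CPM). Oil mouse 2 was the lowest of its group in C5ar1 and the highest in the sum (1779 CPM). The part of neutrophil RNA in C5ar1 was not tested.

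Between Trem1-deficient CCl4 and oil mice 0 of the 9 genes passed the edgeR test, where 0.233% of all tested genes changed, 0.178% higher and 0.0555% lower. The 2 groups overlapped for each of the 9, as they did for most tested genes. Only 1.63% of tested genes had Trem1-deficient CCl4 mice above all oil mice and 1.27% below them, so neither count sets the 9 genes apart. At an unadjusted p under 0.05 the 9 genes gave 0, and DESeq2 and limma voom called 0. The log2 fold changes were -0.42 ± 0.41 for C1qa, -0.21 ± 0.28 for C1qb, -0.33 ± 0.28 for C1qc, -0.44 ± 0.31 for Cfp and -0.55 ± 0.32 for Vsig4, and 0.56 ± 0.64 for C3. They were -0.31 ± 0.80 for C6, -0.34 ± 0.53 for C3ar1 and 0.67 ± 0.86 for C5ar1. For C1qa, C1qb, C1qc, Cfp and Vsig4 the means thus ran from oil, the highest, through Trem1-deficient CCl4 to WT CCl4, and the first step of that order was not past the test. Within index series 1, where Trem1-deficient CCl4 mice 1 and 2 face the 5 oil mice, Vsig4 was -0.70 ± 0.26 (edgeR adjusted p = 0.568), C1qc -0.62 ± 0.23 (adjusted p = 0.564) and Cfp 0.06 ± 0.24 (adjusted p = 0.9996).

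Kupffer cell transcripts as a whole showed the same groups. Clec4f, a lectin gene of Kupffer cells, averaged 1259 ± 263 CPM in Trem1-deficient CCl4, 268 ± 178 CPM in WT CCl4 and 2261 ± 644 CPM in oil mice (SD, n = 5). Of the 12 Kupffer markers, none of them among the 9 genes, 10 were lower in WT CCl4 than in oil mice, beside 2.09% of all tested genes. Of the same markers 8 were higher in Trem1-deficient than in WT CCl4 mice, beside 0.778% of all tested genes. The 12 markers summed to 24640 to 36060 CPM in Trem1-deficient CCl4, 3989 to 13420 CPM in WT CCl4 and 19720 to 40160 CPM in oil mice. Set against the mean log2(CPM + 1) of these markers, C1qb averaged 0.39 ± 0.30 (SD) in Trem1-deficient CCl4, 0.44 ± 0.21 in WT CCl4 and 0.16 ± 0.28 in oil mice. C1qa averaged 4.20 ± 0.37 in Trem1-deficient CCl4, 3.95 ± 0.43 in WT CCl4 and 4.17 ± 0.27 in oil mice. Vsig4 averaged 0.60 ± 0.26 in Trem1-deficient CCl4, 0.40 ± 0.34 in WT CCl4 and 0.69 ± 0.15 in oil mice. For C1qa, C1qb, C1qc, Cfp and Vsig4 these relative levels differed between any pair of groups by -0.40 to 0.49, with exact permutation p of 0.0873 or more. In WT CCl4 against oil these differences ran from -0.30 for Vsig4 to 0.49 for C1qc. The SD between mice was up to 0.60 over the 3 groups. Tests of 5 against 5 mice cannot show that these genes and the Kupffer markers fell equally.

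The group means of C3 and C5ar1 lay further apart on this scale. Relative to the Kupffer markers C3 averaged 0.20 ± 1.10 in Trem1-deficient CCl4, 4.05 ± 1.16 in WT CCl4 and -0.95 ± 1.61 in oil mice, and every WT CCl4 mouse lay above every other mouse. The differences were 5.00 for WT CCl4 against oil and -3.84 for Trem1-deficient against WT CCl4 (each exact permutation p = 0.00794, adjusted p = 0.0524). C5ar1 averaged -4.94 ± 1.61 in Trem1-deficient CCl4, -1.83 ± 1.90 in WT CCl4 and -6.09 ± 1.60 in oil mice, with a difference of 4.27 for WT CCl4 against oil (exact permutation p = 0.00794, adjusted p = 0.0524). On this scale a gene with an unchanged level also rises where the markers fall. The level of C5ar1 itself differed by 1.30 ± 0.87 in that comparison (edgeR adjusted p = 0.462), and by -0.77 with series as a term. In all, 0 of the 33 tests of this kind passed the adjusted threshold, and 0.0524 was the lowest adjusted p. For C6 and C3ar1 the groups overlapped on this scale, with WT CCl4 mice spread by 2.00 and 2.18 (SD).

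**Figure D3:**
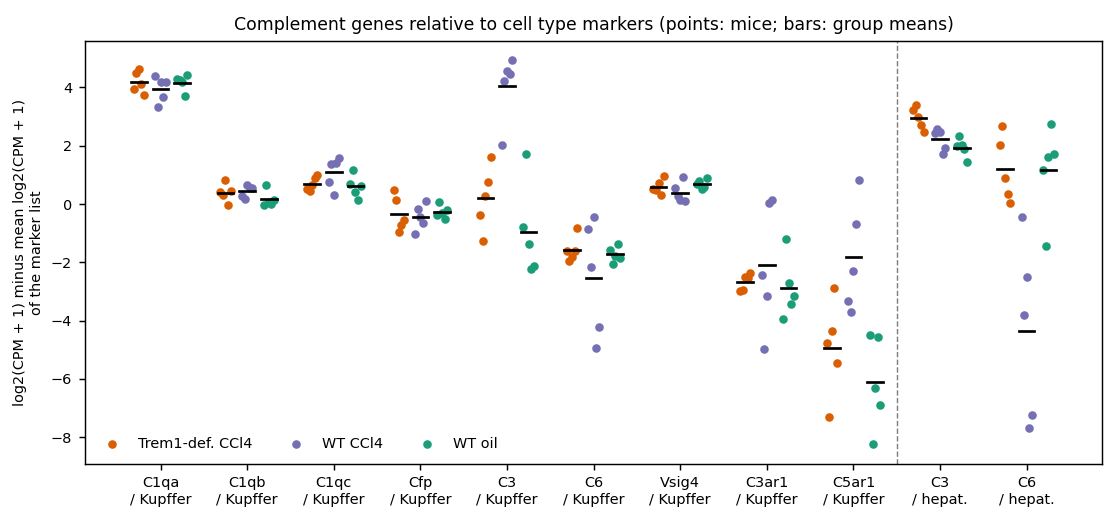
Level of each complement gene in a mouse, as log2(CPM + 1) minus the mean log2(CPM + 1) of the Kupffer markers (left of the dashed line) or the hepatocyte markers (C3 and C6, right of it); points are mice coloured by group, bars are group means. For C1qa, C1qb, C1qc, Cfp and Vsig4 the group means lie within 0.49 of each other, whereas C3 is highest against Kupffer markers in WT CCl4 mice and C6 lowest against hepatocyte markers there.

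Over the 15 mice the genes whose profile came nearest to the mean of the 3 C1q chains were Aif1, Cd5l, Mrc1, Clec4f and St3gal5, among 7798 genes outside the complement lists with a mean of 10 CPM or more. Their distance, the root mean square difference of centred log2(CPM + 1), was 0.305, 0.341, 0.416, 0.416 and 0.419, against a median of 1.60 over all genes compared. On the same measure Vsig4 stood at 0.328 and Cfp at 0.453, while C3ar1 stood at 1.18, C6 at 1.25, C5ar1 at 2.32 and C3 at 2.34. Nearest to C3 were Qsox1 (0.495), Plg (0.505), Rora (0.547), Asgr1 (0.548) and Ahsg (0.556), of which Plg, Asgr1 and Ahsg encode proteins made in hepatocytes. Ahsg, one of the hepatocyte markers above, averaged 871 ± 818 CPM in Trem1-deficient CCl4, 3311 ± 2078 CPM in WT CCl4 and 1013 ± 1069 CPM in oil mice.

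The other complement genes were counted from a list of 62 that covers initiation, convertases, the terminal pathway, regulators and receptors, of which 38 besides the 9 were tested. In WT CCl4 against oil 9 of the 38 were higher and 2 lower by edgeR, beside 3.04% higher and 2.09% lower among all tested genes. The median log2 fold change of the 38 was 1.70 there, beside 0.06 over all genes. In Trem1-deficient against WT CCl4 2 were higher and 3 lower, beside 0.778% and 1.28% of all tested genes, with a median of -1.18 beside -0.03. In Trem1-deficient CCl4 against oil 1 was higher, beside 0.178% of all tested genes. Fcna, a ficolin gene of macrophages that starts the lectin arm, moved like C1q: it averaged 2993 ± 705 CPM in Trem1-deficient CCl4, 655 ± 520 CPM in WT CCl4 and 4482 ± 1052 CPM in oil mice (-2.77 ± 0.38, edgeR adjusted p = 8.50e-05, for WT CCl4 against oil and 2.19 ± 0.37, adjusted p = 0.00176, for Trem1-deficient against WT CCl4). Lrp1, an endocytic receptor gene whose product acts with calreticulin in the uptake of C1q-tagged cells, averaged 1584 ± 421 CPM in Trem1-deficient CCl4, 731 ± 170.1 CPM in WT CCl4 and 1515 ± 355 CPM in oil mice (-1.05 ± 0.26, edgeR adjusted p = 0.0128, and 1.12 ± 0.26, adjusted p = 0.0171).

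Genes of fluid-phase complement made largely in hepatocytes were among those higher in WT CCl4 than in oil mice. They included the pore components C8a (4.27 ± 1.14, edgeR adjusted p = 0.0477) and C9 (3.11 ± 0.80, adjusted p = 0.0179) and the regulators Cfi, Clu and Vtn (2.71 to 3.10, adjusted p of 0.000671 to 0.0387). Cfi, the protease that inactivates C3b, averaged 22.7 ± 23.1 CPM in Trem1-deficient CCl4, 181 ± 134 CPM in WT CCl4 and 26.0 ± 31.0 CPM in oil mice, and was lower in Trem1-deficient than in WT CCl4 mice (-3.01 ± 0.81, edgeR adjusted p = 0.0459). Clusterin (Clu, -1.84 ± 0.47, edgeR adjusted p = 0.0348) and Mbl2, a mannose-binding lectin gene (-3.07 ± 0.74, adjusted p = 0.0250), were lower there too. Among genes listed as receptors, Cd93, once proposed as a receptor for C1q (3.17 ± 0.50, edgeR adjusted p = 0.000134), the complement receptor chain gene Itgam (2.12 ± 0.53, adjusted p = 0.0139), which encodes CD11b, and the calreticulin gene Calr (1.47 ± 0.35, adjusted p = 0.0143) were higher in WT CCl4 than in oil mice. Cd93 was also higher in Trem1-deficient CCl4 than in oil mice (2.32 ± 0.48, edgeR adjusted p = 0.0220), at 224 ± 110.1 CPM in Trem1-deficient CCl4, 403 ± 167 CPM in WT CCl4 and 45.1 ± 36.5 CPM in oil mice.

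With series as a term only Fcna (-3.27) and Cd93 (3.52) of the 11 genes called stayed called in WT CCl4 against oil (edgeR). Itgam (3.37) and Lrp1 (-1.72) moved away from 0 but missed the threshold, each with an edgeR adjusted p of 0.0893. The log2 fold changes of the remaining genes named moved towards 0 or past it, to 1.13 for Clu, 0.95 for C8a, 0.92 for Calr, 0.45 for Cfi, -0.03 for Vtn and -0.29 for C9. Within index series 2 only Fcna (2.38) of the 5 stayed called in Trem1-deficient against WT CCl4 (edgeR), while Lrp1 (1.36), Mbl2 (-2.55), Cfi (-2.42) and Clu (-1.37) kept their direction with adjusted p of 0.0762 to 0.308. Leaving out single mice also ended calls in WT CCl4 against oil, of C8a without any of 9 mice (3.90 to 4.35), Cfi without any of 7 (2.45 to 2.93), C9 without oil mouse 4 or 5 (2.99 and 2.91) and Itgam without WT CCl4 mouse 3 (1.89). In Trem1-deficient against WT CCl4 it ended the calls of Cfi without any of 10 mice (-3.31 to -2.66), Clu without any of 6 (-1.90 to -1.55), Mbl2 without any of 6 (-3.15 to -2.59) and Lrp1 without Trem1-deficient CCl4 mouse 3 (1.02) or WT CCl4 mouse 4 (0.99), and the call of Cd93 in Trem1-deficient CCl4 against oil was lost without any of 6 mice (2.09 to 2.37). The log2 fold changes stayed close to those of all 15 mice while the adjusted p passed 0.05. The 11 monocyte markers, Itgam among them, summed to 780 to 1611 CPM in Trem1-deficient CCl4, 2776 to 5282 CPM in WT CCl4 and 600.0 to 1459 CPM in oil mice, beside the hepatocyte sums above. The part of monocyte and hepatocyte RNA in these differences was not tested.

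**Figure D4:**
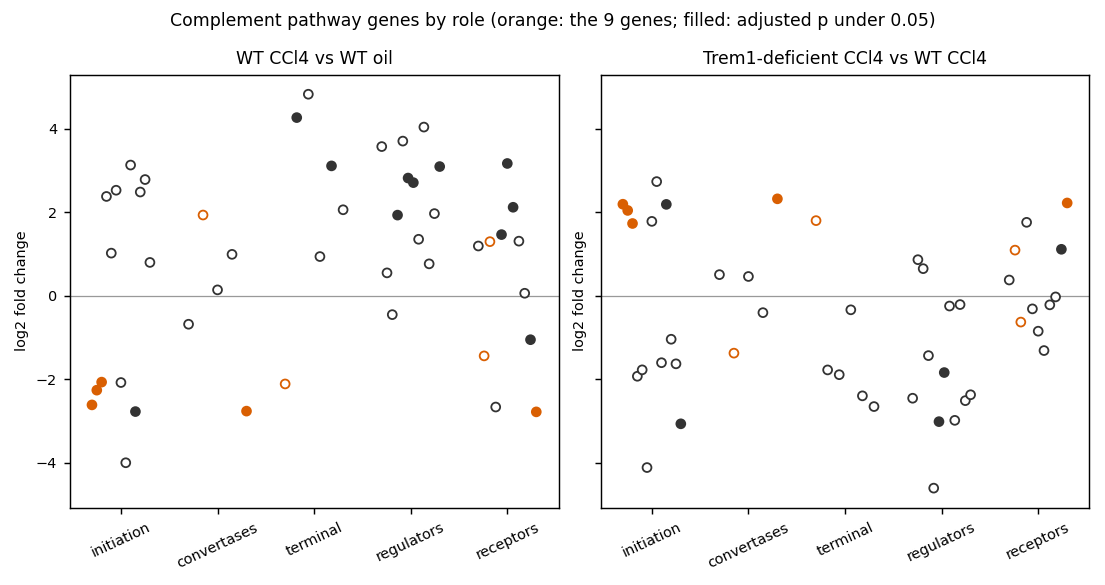
Fitted log2 fold changes (vertical axes) of the 47 tested complement genes, grouped by role along the horizontal axis, for WT CCl4 against oil (left) and Trem1-deficient against WT CCl4 (right); orange marks the 9 genes described first and filled points have an edgeR adjusted p under 0.05. Among the other genes, 9 are filled above 0 and 2 below it on the left, and 2 above and 3 below on the right.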

How the data were processed

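Kupffer cell RNA of 15 mice was made into 3′ tag libraries (Lexogen QuantSeq), per the labels' protocols. The deposited table holds raw counts of reads per gene, 1 column per mouse pooled over 4 sequencing lanes by the authors. Trimmomatic, STAR 2.5.1a, Partek 6.6 and mm10 appear in the submitters' processing notes. The sources used here do not give the annotation or the strand setting, so antisense and overlapping genes cannot be told apart. The 4 tally lines (reads outside genes) stayed out of library sizes and tests, and genes held 12.6 to 28.8% of all reads. No molecular identifiers are mentioned, so counting error is a lower limit.

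Testing used edgeR 4.0.16 under R 4.3.3 (scaling by TMM, filterByExpr by group, robust quasi-likelihood F-test, 1 fit of the 3 groups, 12 residual degrees of freedom), with p-values adjusted by Benjamini-Hochberg over 9001 genes. The SE is the log2 fold change over the root of F. The biological coefficient of variation was 0.888, and the code was tested on simulated data. Levels are TMM-scaled CPM. Levels relative to marker lists used a pseudocount of 1 and two-sided exact permutation tests (scipy 1.17.1). Libraries of a group all differed by more than sampling noise, with a chi-square of at least 10.2 per degree of freedom. DESeq2 1.42.0 and limma 3.58.1, other scalings and filters, index series and single mice were tried as alternatives. Gene positions come from GENCODE on GRCm38, promoters from RefSeq on GRCm38.p6.

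Named are the 9 genes, other complement genes that passed in any comparison, Trem1, Clec4f, and the 5 genes nearest to the C1q mean and to C3. Of the other complement genes that passed, 1 is counted but not reported by name here. Members and lists were chosen with earlier results of these data known. The mouse is the replicate, as the labels number the mice of a group.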

Additional observations from a re-analysis of the deposited data

Results flagged for a closer look

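In 2 of the 27 sets of 5 mice (9 genes in 3 groups) 1 mouse stood apart from its group by Dixon's criterion (gap over range above 0.71). Chance alone meets it in about 1 of 20 sets of normally distributed values, and 2 of 27 is near that share. The criterion was applied to CPM without a log, where a high value stands out more easily. C3 in oil mouse 2 was 2269 CPM, while the other oil mice had 273 to 684 CPM, so the gap took 0.794 of the range. The hepatocyte markers of oil mouse 2 summed to 19710 CPM, the highest of the oil mice, whose next was 8971 CPM. This was not particular to hepatocytes. Oil mouse 2 was also the highest oil mouse for monocyte (1459 CPM), neutrophil (1779 CPM) and endothelial markers (4080 CPM). It was the lowest for Kupffer markers, at 19720 CPM beside 33890 to 40160 CPM in the other oil mice. C5ar1 in Trem1-deficient CCl4 mouse 4 was 128 CPM, while the other Trem1-deficient CCl4 mice had 4.74 to 36.5 CPM, with a gap of 0.743 of the range. Neutrophil markers of that mouse summed to 914 CPM, within the 398 to 3309 CPM of its group. The part of RNA from other cell types in these 2 values was not tested.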

How the results depend on the processing

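In WT CCl4 against oil and in Trem1-deficient against WT CCl4, C1qa, C1qb, C1qc, Cfp and Vsig4 kept their direction under every alternative run, and their calls except those of C1qa and Cfp given in the report. Of 462, 185 and 21 genes called in WT CCl4 against oil, Trem1-deficient against WT CCl4 and Trem1-deficient CCl4 against oil, DESeq2 called 1010, 593 and 67, no filter on low counts 813, 563 and 73, and series as a term 37, 77 and 11. Limma voom called 593 and 7 in the last 2 comparisons, library totals without TMM 306 in Trem1-deficient against WT CCl4, and index series 2 alone 57. Without single mice the counts were 302 to 759, 87 to 508 and 12 to 31. Of the 9 genes, 1 was called higher in WT CCl4 than in oil mice, C3, by DESeq2 (1.98), with only both groups in the fit (1.92) and without oil mouse 2 (range 0 to 1 over the mice left out), and 3 were called lower with series as a term. The share of called genes that were higher, 59.3% in WT CCl4 against oil and 37.8% in Trem1-deficient against WT CCl4, was 41.0% and 69.0% without TMM and 42.0% and 50.8% by limma voom. The median of all genes moved from 0.06 to -0.13 without TMM and to -0.29 by limma voom, which kept the TMM scaling. In Trem1-deficient against WT CCl4 it moved from -0.03 to 0.26 and 0.40. Mice of the same number in different groups did not deviate together (correlations of -0.059 to 0.039), so the numbers do not pair them. With the mouse number as a replicate block 365, 158 and 21 genes were called, with 5, 5 and 0 of the 9 genes, and the calls of C8a (4.96) and Calr (1.34) in WT CCl4 against oil, of Clu (-1.70) in Trem1-deficient against WT CCl4 and of Cfi in both (2.71 and -2.99) were lost with log2 fold changes of similar size. Calls also ended, again with log2 fold changes of similar size, for C8a with no filter (4.29) or a minimum of 10 counts in 5 libraries (4.27), for Calr by limma voom (1.32), for Lrp1 in Trem1-deficient against WT CCl4 with only those groups in the fit (1.12), and for Cd93 in Trem1-deficient CCl4 against oil by limma voom, with only those groups, with series as a term and within series 1 (2.32 to 2.67). Against oil, Trem1-deficient CCl4 mice turned with series as a term in Cfp (0.043), C3 (-0.84) and C5ar1 (-0.87), and within series 1 in Cfp (0.064), C3 (-0.83) and C5ar1 (-0.86). In WT CCl4 against oil series as a term turned C5ar1 (-0.77), C9 (-0.29) and Vtn (-0.027). C5ar1 ranged from -1.64 to 0.14 in Trem1-deficient against WT CCl4 and from -0.35 to 1.10 in Trem1-deficient CCl4 against oil over the mice left out. The cause was not tested.

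Levels relative to marker lists turned where they were near 0. A pseudocount of 5 turned C1qb in Trem1-deficient against WT CCl4 (0.044) and C6 over hepatocyte markers in Trem1-deficient CCl4 against oil (-0.12). Summed markers turned, in Trem1-deficient CCl4 against oil, C1qa (-0.33), C1qb (-0.13), C1qc (-0.26), C6 (-0.19), C3ar1 (-0.13) and C6 over hepatocyte markers (-0.40), Cfp in Trem1-deficient against WT CCl4 (-0.012), and C3 over hepatocyte markers in WT CCl4 against oil (-0.11). Within a series C1qc (-0.13), Cfp (0.57), C6 (-0.056) and C3ar1 (-0.089) turned in Trem1-deficient CCl4 against oil and Cfp (-0.30) in Trem1-deficient against WT CCl4. Over the mice left out, the ranges that crossed 0 in Trem1-deficient CCl4 against oil were -0.089 to 0.14 for C1qa, -0.029 to 0.23 for C1qc, -0.26 to 0.10 for Cfp, -0.020 to 0.26 for C6, -0.042 to 0.64 for C3ar1 and -0.61 to 0.43 for C6 over hepatocyte markers. In Trem1-deficient against WT CCl4 they were -0.16 to 0.051 for C1qb and -0.083 to 0.27 for Cfp. With a pseudocount of 5 or with summed markers the lowest adjusted p was 0.0437 instead of 0.0524, which called C3 and C5ar1 over Kupffer markers (4.87 and 3.80, or 4.78 and 4.04, in WT CCl4 against oil), C3 in Trem1-deficient against WT CCl4 (-3.72 or -3.97) and C3 and C6 over hepatocyte markers there (0.60 and 4.99, or 0.70 and 5.51). A pseudocount of 5 also called C3 over hepatocyte markers (0.86), and summed markers Vsig4 over Kupffer markers (-0.44), in Trem1-deficient CCl4 against oil.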
